A study of Mus musculus with 107 samples.

Results

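The 6 genes described here encode early zygotic regulators of the mouse embryo: the homeobox gene Duxf3, the zinc finger genes Zscan4b, Zscan4c, Zscan4d and Zscan4-ps3, and the zinc finger gene Zfp352. They were chosen by name, with earlier results of these data known. All 6 were found among the 21564 gene symbols of the count table. Transcripts were counted in single eggs of C57BL/6J mice, copied by Smart-seq2, which amplifies whole polyadenylated transcripts of 1 cell without marking their strand. The females were 2 to 3 months old and had received 5 IU of pregnant mare serum gonadotropin 48 h before collection. Their germinal vesicle oocytes were held in 2.5 µM milrinone, matured in CZB medium and harvested as eggs 38 to 40 h after germinal vesicle breakdown. There were 29 wildtype eggs, 61 eggs homozygous for a mutation of Mos (22 M1, 18 M2 and 21 M3) and 17 wildtype eggs activated for 2 h with 10 mM strontium chloride in calcium-free medium. This activation began 15 to 16 h after breakdown, involves no sperm, and so leaves the egg without a paternal genome. Batch 1 held 5 wildtype, 4 M1, 2 M2 and 3 M3 eggs, and batch 2 held 24, 18, 16 and 18 of these and all 17 activated eggs. The labels do not define M1, M2 and M3, nor the number of growths that the deposited egg table gives each egg, which equalled 1, 2 and 3 in M1, M2 and M3.

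Dux proteins are transcription factors that bind DNA through a pair of homeodomains and are made in the mouse embryo around the first cell division, when the zygotic genome is switched on. Their targets include the Zscan4 cluster, whose products carry a SCAN domain and zinc fingers and are linked to telomere maintenance, and Zfp352, a gene without introns in its coding sequence that is transcribed at the same stage. In cultured embryonic stem cells the same genes mark a rare state that resembles the cells of the early embryo, and chromatin repressors such as Trim28 and Setdb1 keep them silent. An unfertilised egg waits in the second meiotic metaphase with transcription shut down, so reads of these genes are of interest both after activation and in eggs with a mutation of Mos, whose kinase holds that arrest.

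The genes lie on 3 chromosomes of GRCm38 (GENCODE M21). Duxf3 lies on chromosome 10 at 58229979 to 58232675, in 2 exons on the minus strand. Zfp352 lies on chromosome 4 at 90218820 to 90225702, in 2 exons on the plus strand. The Zscan4 copies share a cluster on chromosome 7, each with 4 exons: Zscan4b at 10900740 to 10905050 (minus), Zscan4c at 11005745 to 11010547 (plus), Zscan4d at 11161374 to 11166159 (minus) and Zscan4-ps3 at 11609308 to 11614112 (plus). Zscan4-ps3 is named as a pseudogene and annotated as protein coding. The 250 bases upstream of the start site, as RefSeq gives it for GRCm38.p6, were found for 5 of the 6 genes. They are shown because all 6 genes were higher in activated than in wildtype eggs. RefSeq places the Duxf3 start outside the GENCODE gene model. Capitals mark TGAT and AATC set 2 bases apart, an arrangement of a pair of homeodomain cores, in Duxf3 and the Zscan4 copies, and TAATCC, a homeodomain motif, in Zfp352.
Duxf3 (chr10:58233090-58233339, - strand): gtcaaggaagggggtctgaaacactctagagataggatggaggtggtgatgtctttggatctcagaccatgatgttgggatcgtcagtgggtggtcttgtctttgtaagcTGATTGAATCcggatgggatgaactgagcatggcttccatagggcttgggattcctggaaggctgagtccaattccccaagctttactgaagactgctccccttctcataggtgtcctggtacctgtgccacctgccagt
Zscan4b (chr7:10905051-10905300, - strand): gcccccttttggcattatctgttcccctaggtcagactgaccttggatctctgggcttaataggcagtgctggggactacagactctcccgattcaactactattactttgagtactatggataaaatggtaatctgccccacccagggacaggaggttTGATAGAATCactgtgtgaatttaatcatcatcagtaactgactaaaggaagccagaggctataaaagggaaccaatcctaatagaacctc
Zscan4c (chr7:11005495-11005744, + strand): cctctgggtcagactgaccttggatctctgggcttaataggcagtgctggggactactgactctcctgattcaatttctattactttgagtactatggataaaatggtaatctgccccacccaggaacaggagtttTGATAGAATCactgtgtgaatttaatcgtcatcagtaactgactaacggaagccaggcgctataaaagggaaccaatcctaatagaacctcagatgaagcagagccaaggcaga
Zscan4d (chr7:11166149-11166398, - strand): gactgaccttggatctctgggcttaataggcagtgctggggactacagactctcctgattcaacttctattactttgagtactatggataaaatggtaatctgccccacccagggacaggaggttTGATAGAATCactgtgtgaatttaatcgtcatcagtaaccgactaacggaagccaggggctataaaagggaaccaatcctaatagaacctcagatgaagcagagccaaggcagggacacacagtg
Zfp352 (chr4:90218570-90218819, + strand): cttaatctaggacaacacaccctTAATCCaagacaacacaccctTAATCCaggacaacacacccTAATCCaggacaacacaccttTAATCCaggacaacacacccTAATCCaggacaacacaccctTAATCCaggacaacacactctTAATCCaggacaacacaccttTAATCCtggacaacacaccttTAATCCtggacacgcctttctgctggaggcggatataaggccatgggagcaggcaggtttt

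The motifs were chosen after these sequences were read, and were searched on both strands of the 250 bases upstream of all 32851 RefSeq starts. The paired motif was present in 0.472% of them. It occurred once in each of the 3 Zscan4 promoters, with the letters TGATAGAATC, and once in that of Duxf3, with the letters TGATTGAATC. In the Zscan4 promoters it began 60 bases before a TATAAA element, which 12.4% of all promoters held. TAATCC was present in 6.25% of promoters, and the Zfp352 promoter held 9 copies at steps of 20 to 21 bases, the most of any promoter searched. It was the 1 promoter with 5 or more. The bases between its copies are repeated too, with few changes, so the 9 copies lie in 1 repeated stretch. None of the 5 promoters held both the paired motif and TAATCC. The Zscan4 promoters were 94.7% (b and c), 97.2% (b and d) and 97.1% (c and d) identical over 216 to 239 aligned bases. Such likeness extends to the transcripts, so reads could be shared or lost between copies, and the values of single Zscan4 and Dux copies are uncertain. A match describes letters and not a bound site.

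Depth differed between the groups. Totals ran from 44 to 9132471 counts per egg, and 3 mutant eggs held under 10000. In batch 2 the median egg had 207420 counts in wildtype, 640482 in M1, 503732 in M2, 756480 in M3 and 796582 in activated eggs, against 6127048 to 8144112 in the groups of batch 1. Raw Mos levels of the sums were 6.52 and 31.6 CPM (the usual scaling of counts to the total count of the egg or sum) in wildtype, 0.868 to 13.3 in mutants and 5.33 in activated eggs. The labels do not say what the mutation does to the transcript, so these reads do not check the labels. All 10 egg markers were read in wildtype, mutant and activated eggs, at 4534 to 15530 CPM in all per sum. Granulosa and cumulus markers summed to 74.7 CPM in activated eggs and 185.3 to 289.4 elsewhere. Nearly all of it was Serpine2 (950 of the activated reads), while Amh, Inhbb, Fst, Ptgs2 and Foxl2 were at 0 in activated eggs. Blood and stroma markers summed to 119.4 CPM in activated eggs and 42.98 to 141.1 elsewhere, with Ptprc at 0 in all eggs and Hbb-bs at 0 in wildtype and activated eggs. The part of these other cell types in the results below was not tested.

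The 17 activated libraries stood in 10 well columns of plate 4, as read from their names, and 7 columns held a library in row A and another in row B. Each of those 14 libraries was closer to its column mate than to any other library of the plate. At an equal depth of 150000 counts, the squared difference between column mates, relative to that of sampling alone, was 1.281 to 2.43 (median 1.45), while the 129 other pairs had 2.94 to 12.48 (median 6.92). On plates 1, 2 and 3, which held mutant and wildtype eggs, 0 of 15, 7 of 27 and 1 of 9 libraries were closest to a column mate. The number of growths was the same in 3 of the 7 pairs and differed in 4. Whether these are 17 independent eggs was not tested, and results that rest on them are also given with 1 library per well column (10 libraries, row A kept where both were present), a choice made after this was seen. Nothing in the labels ties eggs to animals.

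**Figure D1:**
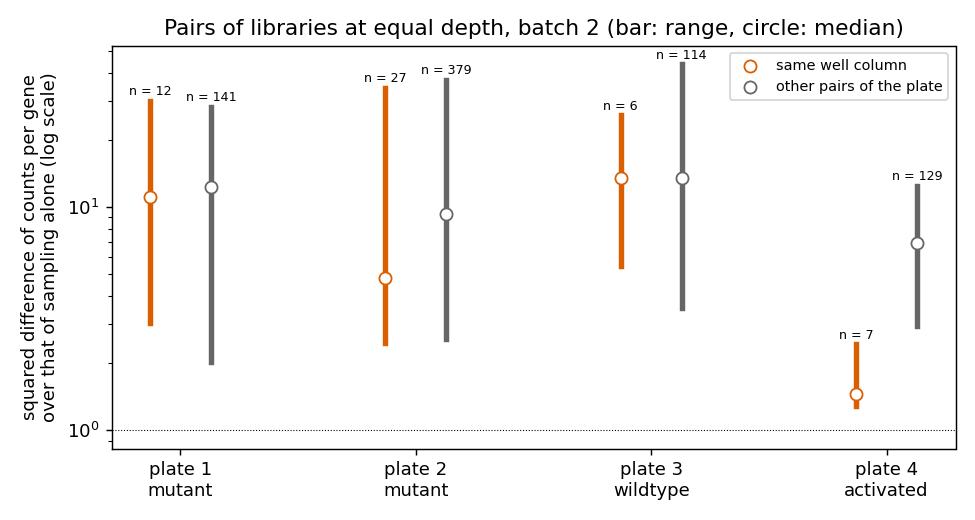
Squared difference of counts per gene between 2 libraries at 150000 counts each, divided by what sampling alone would give (vertical axis, log scale), for pairs in the same well column and for other pairs of each plate of batch 2 (horizontal axis). Bars span the range and circles mark the median. On plate 4 the 7 column pairs (1.281 to 2.43) lie below all 129 other pairs (2.94 to 12.48).

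Activated eggs carried reads of all 6 genes, and unactivated wildtype eggs carried almost none. Of 17 activated libraries 17 held at least 3 of the 6 genes and 11 held all 6, with 5465 reads in all (404.4 CPM). Of 29 wildtype eggs 23 held none, and the rest held 23 reads among them (0.552 CPM). The comparison of activated with wildtype eggs asks which transcripts differ after activation, and plate and treatment cannot be told apart in it. All 6 genes passed as higher in activated eggs (edgeR adjusted p under 0.05). Without the activated sum 2 of the 6 passed the filter on counts, so the rest were tested because of their activated reads. Their calls are therefore partly set by that filter. Over all 13832 genes tested, 5.66% passed as higher and 7.33% as lower (13% in all). The median log2 fold of the 6 was 8.14, or 7.46 with the 3 genes that had no wildtype read set at their lower bound, against 0.15 for all genes. With 1 library per well column all 6 genes passed again. With sums per plate in place of batches, or without a batch term, 2 of the 6 passed, Duxf3 and Zscan4c.

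**Figure D2:**
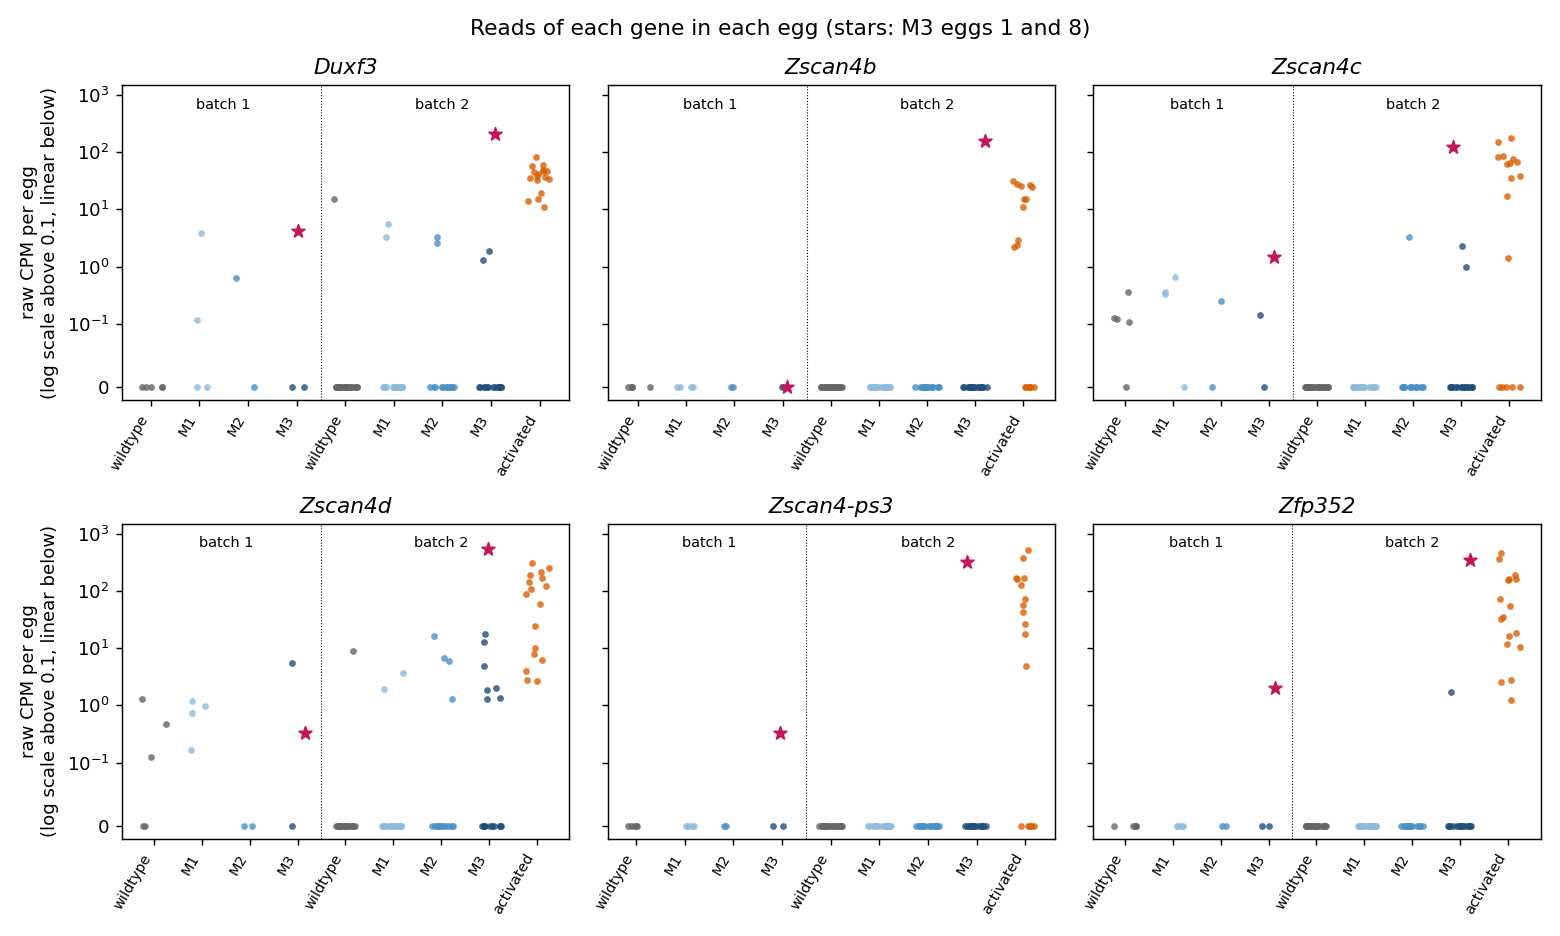
Raw CPM of each gene (vertical axis, logarithmic above 0.1 and linear below) in every egg, 1 point per egg, by group and batch (horizontal axis). Stars mark M3 eggs 1 and 8. Every activated egg holds Duxf3 reads, at 11.2 to 80.8 CPM, while Zscan4b, Zscan4-ps3 and Zfp352 lie at 0 in all 29 wildtype eggs.

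Duxf3, the upstream factor, was read in every activated library. The lowest held 11.2 CPM, the median 38.0 and the highest 80.8, and the sum held 41 CPM (554 reads; Poisson 95% interval 37.7 to 44.6, which like the other intervals covers counting error only). In wildtype eggs it had 0 reads among 36209306 counts of batch 1 and 1 read among 5436993 of batch 2. That read came from an egg of 66826 counts and scored 15.0 CPM there, so activated and wildtype eggs overlapped only through it. The ratio of activated to wildtype CPM in batch 2 was 223 (exact interval 39.8 to 8820), and 223 with 1 library per well column (39.7 to 8817). The fitted log2 fold over both batches was 8.92 ± 1.17 (SE; edgeR adjusted p = 0.000106). At an equal depth of 60000 counts per egg, Duxf3 was seen in 14 of 17 activated and 1 of 29 wildtype eggs.

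The Zscan4 copies were higher in activated eggs too, but unevenly between libraries. Zscan4d ran from 2.70 to 302 CPM with a median of 90.2 and was read in 17 of 17 libraries. Zscan4c was read in 12 of 17 (median 38.0, highest 174.1), Zscan4-ps3 in 12 (43.3 and 511.6) and Zscan4b in 11 (2.89 and 31.7). In wildtype eggs Zscan4b and Zscan4-ps3 had no read in either batch. Zscan4c had 1 to 3 reads in each of 4 deep eggs of batch 1 (6 in all) and 0 in batch 2. Zscan4d had 15 reads in 3 eggs of batch 1 and 1 in batch 2, so wildtype eggs were not wholly without reads of these 2 copies.

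Within batch 2, Zscan4-ps3 was at least 190.6-fold higher in activated than in wildtype eggs, Zscan4c at least 87.4-fold and Zscan4b at least 19.5-fold, each against a floor of 3 counts for the whole wildtype sum. With 1 library per well column these bounds were 167.3, 79 and 18.2. Zscan4d had a ratio of 501 (89.7 to 19800). The edgeR adjusted p over both batches was 5.63e-05 for Zscan4-ps3, 0.00272 for Zscan4c, 0.0304 for Zscan4d and 0.0332 for Zscan4b. The call of Zscan4b rested on M3 egg 8, which is described below: without that egg in the fit its edgeR adjusted p was 0.0691. It was also lost with DESeq2 and limma voom, as given in the closing section.

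Zfp352 was read in 17 of 17 activated libraries, at 1.24 to 460.3 CPM with a median of 35.6, and in 0 of 29 wildtype eggs. The activated sum held 1448 reads (107.2 CPM) against 0 among 5436993 wildtype counts of batch 2, at least 194.3-fold higher, or at least 185.4-fold with 1 library per well column. Its edgeR adjusted p was 2.67e-05. DESeq2 did not call Zfp352 (adjusted p = 0.159) or Zscan4-ps3 (adjusted p = 0.168), which like Zscan4b had no wildtype read in either batch. The deepest wildtype sum, batch 1, still leaves a Poisson upper limit of 0.102 CPM.

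**Figure D3:**
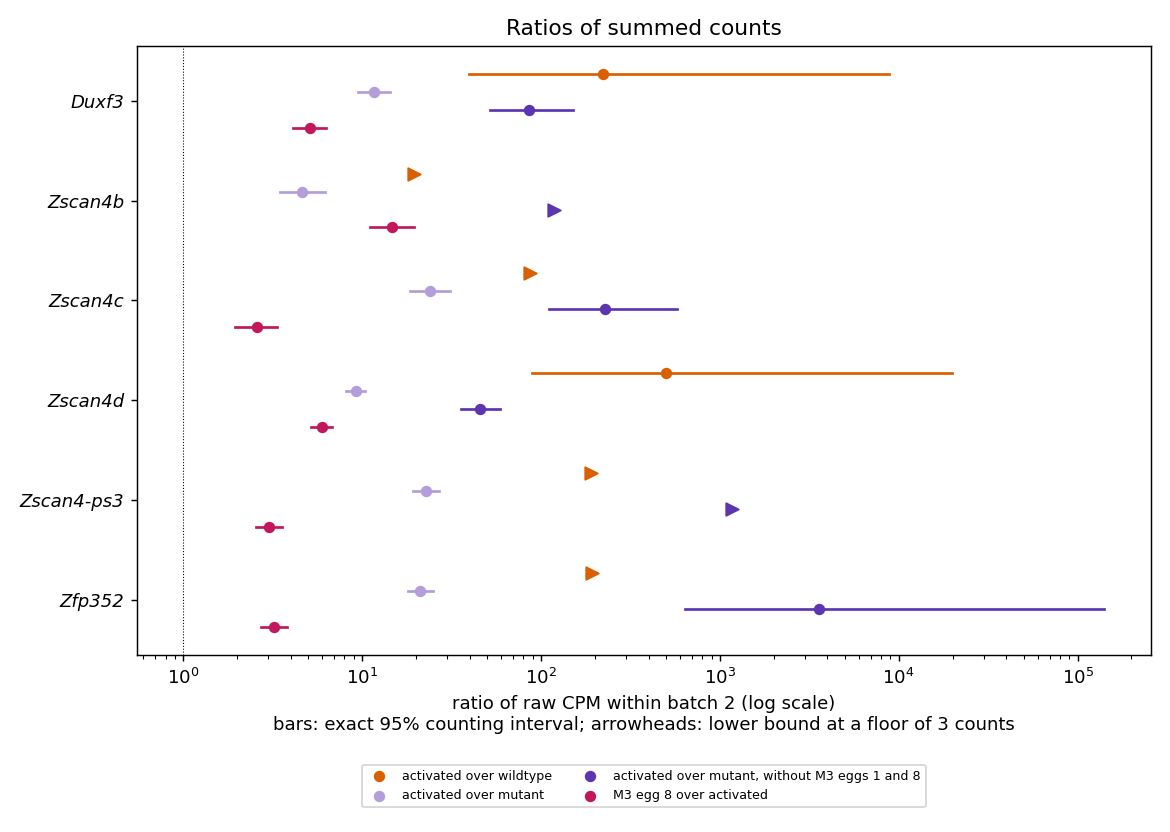
Ratio of raw CPM between sums of batch 2 (horizontal axis, log scale) for each gene (vertical axis). Points and bars give the ratio with its exact 95% counting interval, and arrowheads give a lower bound where the denominator had no read. The ratio of activated to mutant eggs lies between 4.65 and 24 with all mutant eggs and rises to 45.8 or more once M3 eggs 1 and 8 are left out.

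Within the activated libraries Zscan4 and Zfp352 reads followed the well column, while the ranges of Duxf3 overlapped between columns. In columns 3, 6 and 8 the 4 Zscan4 copies summed to 2.70 to 11.2 CPM in 6 libraries. The other 8 paired libraries held 273.7 to 1019 CPM, and the 3 libraries alone in their column held 87.98 to 156.7. In the first 6 libraries Zscan4b was at 0 throughout, Zscan4c and Zscan4-ps3 were at 0 in 5 each, and Zfp352 held 1.24 to 16.2 CPM. In the other paired libraries Zfp352 held 54.2 to 460.3 CPM, and in those alone in a column 18.8 to 35.6. Duxf3 held 14.1 to 47.2 CPM in the first 6, and 11.2 to 80.8 and 38.0 to 60.6 in the others, with overlapping ranges. The 11.2 CPM was 2 reads in the 179003 counts of activated egg 1. The next lowest value outside columns 3, 6 and 8 was 34.55 CPM (egg 13). Within these columns eggs 4, 12, 17 and 9 lay below that, at 14.1, 15.1, 19.4 and 32.4 CPM. Eggs 7 and 15 did not, at 34.75 and 47.2 CPM. Totals overlapped as well, since the libraries of columns 3, 6 and 8 had 711186 to 1132319 counts. The 2 extremes were column 5, with 811.7 and 1019 CPM of Zscan4, and column 6, with 11.2 and 2.70. These sets of columns were read off from the values and are not groups of the study. The number of growths did not separate the libraries: median Zfp352 was 34.1 CPM in 8 libraries with 1 growth and 54.2 in 9 with 2, each set spanning low and high libraries, and median Duxf3 was 35.2 and 47.2.

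**Figure D4:**
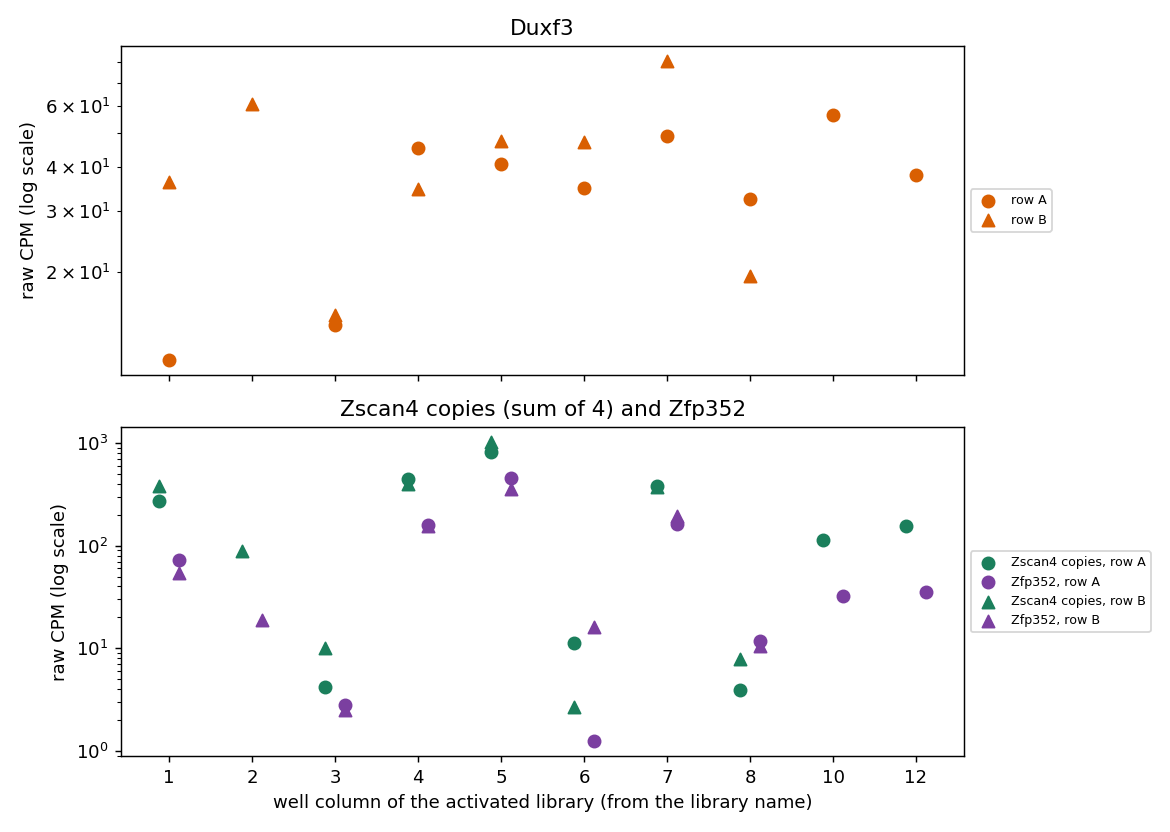
Raw CPM (vertical axes, log scale) of Duxf3 (top) and of the 4 Zscan4 copies summed and Zfp352 (bottom) in each activated library, by well column (horizontal axis) and row (circles A, triangles B). Zscan4 and Zfp352 are low together in columns 3, 6 and 8, where the Zscan4 sum is 2.70 to 11.2 CPM. Duxf3 is at 14.1 to 47.2 CPM there and at 11.2 to 80.8 CPM in the other columns.

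Mutant eggs carried few reads of these genes, with a single exception. Of 61 mutant eggs 35 held no read of any of the 6 genes and 13 held reads of 1 gene. Mutant eggs were set against wildtype eggs to ask which transcripts differ with the mutation of Mos. Here 1 of the 6 genes passed as higher, Duxf3 (log2 fold 4.46 ± 1.09, edgeR adjusted p = 0.0154), where 5.36% of all genes passed as higher and 4.03% as lower (9.38% in all). That call depended on single eggs. Duxf3 reads numbered 22, 5 and 25 in the M1, M2 and M3 sums of batch 1 and 8, 6 and 105 in batch 2. M3 egg 8 gave all but 2 of the last, M3 egg 1 all 25 of M3 in batch 1, and M1 egg 9 gave 21 of the 22 of M1. Without M3 egg 8 the edgeR adjusted p was 0.0667, and without M3 eggs 1 and 8 it was 0.235, with a log2 fold of 2.69. It was 0.214 by edgeR without the wildtype sum of batch 1 and 0.0502 without the M1 sum of batch 1. With eggs thinned to 60000 counts the log2 fold was -0.34.

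The 4 Zscan4 copies and Zfp352 were not called between mutant and wildtype eggs. Zscan4c had a log2 fold of 1.20 ± 1.11 (edgeR adjusted p = 0.61) and Zscan4d 1.44 ± 1.11 (edgeR adjusted p = 0.53). For Zscan4b, Zscan4-ps3 and Zfp352 the fit gave no usable error, since 4 or more of the mutant sums had no read and nor had wildtype. The raw ratio of mutant to wildtype Zscan4d in batch 1 was 2.67 without M3 egg 1 (1.502 to 5.05), and 42 of those 63 mutant reads lay in M3 egg 2. In batch 2 without M3 egg 8 it was 10.93 (1.895 to 438), from 67 mutant reads against 1 wildtype read. Those 67 reads lay in 13 of 51 mutant eggs, and the highest egg gave 34.3% of them. The wildtype level there rests on that 1 read. In the 59 mutant eggs other than M3 eggs 1 and 8, Duxf3 was read in 9 eggs (43 reads), Zscan4c in 8 (18 reads), Zscan4d in 18 (130 reads), Zfp352 in 1 (1 read), and Zscan4b and Zscan4-ps3 in none. Their highest single values were 5.55 CPM for Duxf3 (M1 egg 15), 3.32 for Zscan4c (M2 egg 5) and 17.5 for Zscan4d (M3 egg 20). These lay below the lowest activated library for Duxf3 and within the activated range for both Zscan4 copies.

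M3 egg 8 of batch 2 held all 6 genes, the only mutant egg to do so. In 490016 counts it had 838 reads of them (1710 CPM), among them 78 of Zscan4b, 61 of Zscan4c, 270 of Zscan4d, 156 of Zscan4-ps3 and 170 of Zfp352. Duxf3 stood at 210.2 CPM (171.6 to 254.9), above every activated library, and was 5.13 times the activated sum (4.11 to 6.34). Zscan4d, at 551.0 CPM, and Zscan4b, at 159.2, were also above every activated library, at 5.98 and 14.8 times the activated sum. Zscan4c (124.5 CPM), Zscan4-ps3 (318.4) and Zfp352 (346.9) were 2.58, 3.03 and 3.24 times the activated sum and lay within the range of single libraries. The other 17 M3 eggs of batch 2 held 47 reads of the 6 genes in all, in 12587261 counts (3.73 CPM).

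M3 egg 1 of batch 1 was a weaker case. In 6029146 counts it held 25 Duxf3 reads (4.15 CPM, 2.68 to 6.12), 12 of Zfp352 (1.99), 9 of Zscan4c (1.49), 2 each of Zscan4d and Zscan4-ps3, and 0 of Zscan4b. Its Duxf3 level was 0.101 times that of the activated sum (0.0649 to 0.151) and its Zfp352 level 0.0186 times. It was the only mutant egg besides M3 egg 8 with more than 1 Zfp352 read and the only one besides it with any Zscan4-ps3 read. The 2 other M3 eggs of batch 1 had no Duxf3 and no Zfp352 read.

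M3 egg 8 was also high in other measures taken beside these genes. At 60000 counts M3 egg 8 showed 8437 genes, against at most 7395 in any egg of the other groups and a median of 6662 in M3 of batch 2, and M3 egg 1 showed 6539 (median of its group 6529). The 25 measured two-cell genes summed to 8373 CPM in egg 8, 589.5 in the median M3 egg of batch 2 and 280.8 in M3 egg 1. Egg markers summed to 13110 CPM in egg 8 and 5069 in egg 1, within the range of other eggs. Blood and stroma markers summed to 363.3 CPM in egg 8 (median of its group 123.7), of which Col1a1 gave 76 of 178 reads, while Col3a1, Ptprc and Hbb-bs were at 0. Granulosa and cumulus markers summed to 361.2 CPM in egg 8 (median of its group 203.2), most of it Serpine2. Has2 had 22 reads there, of 47 in all mutant eggs, Kitl 10 and Foxl2 1, with Amh, Inhba, Inhbb, Hsd3b1, Fst and Ptgs2 at 0. The part of these differences in the reads of the 6 genes was not tested.

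The comparison of M3 with M1 and M2 gave 2 of the 6 genes as higher, Zfp352 (edgeR adjusted p = 7.09e-05) and Zscan4-ps3 (edgeR adjusted p = 0.000219), where 0.181% of all genes passed, all of them higher in M3. Neither had a read in any M1 or M2 egg. Without the activated sum neither passed the filter on counts, so both were tested here because of their activated reads. Of the 2 genes then tested, Duxf3 and Zscan4d, 0 were called. In batch 2 all 156 Zscan4-ps3 and 170 of 171 Zfp352 reads of M3 came from egg 8. Without that egg 0 genes passed in this comparison by edgeR (630 of 13443 had an unadjusted p under 0.05), and with all eggs DESeq2 called 54 genes higher and 53 lower and limma voom 2 higher. Neither Zfp352 nor Zscan4-ps3 was called by DESeq2 (adjusted p = 0.504 and 0.562) or limma voom (adjusted p = 0.0613 and 0.151), nor by edgeR with sums per plate or without a batch term. DESeq2 called 1 of the 6 genes, Duxf3 (adjusted p = 0.0237). For Duxf3 the edgeR log2 fold went from 2.48 ± 0.63 (adjusted p = 0.194) to -2.93 (adjusted p = 0.867) without eggs 1 and 8. The median log2 fold of the 6 genes was 5.55, or 4.41 with the 3 genes that M1 and M2 lacked at their lower bound, against 0.04 for all genes.

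Activated eggs exceeded mutant eggs at all 6 genes (edgeR adjusted p from 5.66e-06 for Zfp352 and Zscan4-ps3 to 0.0384 for Zscan4d), while 1.42% of all genes passed as higher and 3.43% as lower (4.84% in all). The median log2 fold was 6.18 for the 6 genes and 0.05 for all genes. This comparison and that with wildtype share the activated libraries, without which 2 of the 6 genes would pass the filter. The batch 2 ratios were 11.7 for Duxf3 (9.54 to 14.3), 24 for Zscan4c, 22.8 for Zscan4-ps3, 21.2 for Zfp352, 9.25 for Zscan4d and 4.65 for Zscan4b (3.51 to 6.21). Without M3 eggs 1 and 8 they were 85.4 for Duxf3 (52.1 to 150.5), 229.8 for Zscan4c, 45.8 for Zscan4d and 3573 for Zfp352 (640.1 to 141200), and at least 1169-fold for Zscan4-ps3 and 119.2-fold for Zscan4b. These 2 eggs were set apart in advance by the rule that named the genes. M3 egg 8 held 838 of the 929 mutant reads of the 6 genes in batch 2, so leaving it out had to raise the ratios. All 6 calls remained without M3 eggs 1 and 8. Without the M3 sum of batch 2 as a whole, 3 of the 6 passed (Duxf3, Zscan4c and Zscan4d), with DESeq2 2 (Duxf3 and Zscan4c) and with sums per plate 1 (Zscan4c).

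Other copies of the same families were listed with the 6 genes, and 7 of 12 were found in the table. In activated against wildtype eggs 5 of 7 rose and 0 fell, where 5.66% of all genes rose and 7.33% fell. The median log2 fold of the 7 was 8.51, or 5.15 with 4 genes at their lower bound and 1 without a usable fold. Duxf1, Zscan4e, Zscan4f and Zscan4-ps2 had no wildtype read and so could not have fallen. The last 3 had 211, 441 and 330 activated reads against 56, 29 and 32 in mutants. The count of 5 may therefore be partly set by the filter on counts, as for the 6 genes. Against mutant eggs 4 of the 7 rose (1.42% of all genes), between mutant and wildtype eggs 1 (5.36%), and between M3 and the other mutants 1 (0.181%). Duxf1, a near copy of Duxf3, had 598 activated and 0 wildtype reads in batch 2, at least 80.2-fold higher (edgeR adjusted p = 2.78e-05). Its mutant sums were also higher than wildtype, at least 10.5-fold in batch 1 and 6.48-fold in batch 2 (edgeR adjusted p = 0.00182). Single eggs gave most of these reads: M3 egg 1 held 61.8% of them in batch 1 and M3 egg 8 held 69.4% in batch 2. Without M3 eggs 1 and 8 the lower bounds were 4.45-fold and 2.01-fold. Then 9 of 59 mutant eggs held a Duxf1 read, and 1 egg gave 36.2% of those reads. Whether the edgeR call of Duxf1 holds without these eggs is not given here. Duxf4 did not follow Duxf1: its raw levels were 33.8 and 41.6 CPM in the wildtype sums and 53.1 in activated eggs (log2 fold -0.35, edgeR adjusted p = 0.66). Zscan4-ps1, the copy between Zscan4c and Zscan4d, was read in 20 of 29 wildtype eggs and rose from 10.5 to 61.4 CPM within batch 2, a ratio of 5.85 (4.47 to 7.79; edgeR adjusted p = 0.0319). Zscan4e, Zscan4f and Zscan4-ps2, which lie between Zscan4d and Zscan4-ps3, rose as well and had no wildtype read.

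The two-cell genes that rise with Dux, 25 of 30 found and 22 tested, had 8 members higher and 0 lower in activated against wildtype eggs, where 5.66% of all genes were higher and 7.33% lower. Their median log2 fold was 6.26, or 3.23 with 10 genes at their lower bound, and 14 did not pass. Those 10 genes had no wildtype read and so could not have fallen. The counts of 8 and 0 may therefore be partly set by the filter on counts. The 3 most counted members, which the naming rule took, did not pass: Zfp750, a zinc finger gene (log2 fold -0.43), the interferon-inducible nuclear gene Sp110 (-0.86), and Arg2, which encodes a mitochondrial arginase (1.22, edgeR adjusted p = 0.0518). The 8 that rose, named after their values were seen, were the deubiquitinase genes Usp17la, Usp17lb, Usp17lc and Usp17ld, with Tmem92, Ddit4l, Tcstv3 and Tdpoz3. Usp17la had 909 reads in activated eggs and 0 in wildtype eggs of batch 2, and Usp17lc had 779 and 0. Against mutants 8 rose (1.42% of all genes), with Spz1 in place of Tcstv3. In M3 against the other mutants the 4 Usp17l genes rose (0.181% of all genes), and egg 8 alone held 849.0 CPM of Usp17lc and 477.5 of Usp17ld, against 57.7 and 17.2 in the activated sum. In mutants against wildtype 1 of 22 rose, Arg2 (1.27 ± 0.28, edgeR adjusted p = 0.00886), a share near the 5.36% of all genes that rose there.

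Genes known to favour or to silence Dux were followed in the same comparisons. Of 7 tested factors that favour its expression 0 passed in any of the 4 comparisons by edgeR, although 1 had an unadjusted p under 0.05 in activated eggs against wildtype and 1 against mutants. DESeq2 called 1 in each of those and limma voom 0. The 3 most counted were Obox5, an oocyte homeobox gene (log2 fold 0.53 in activated against wildtype eggs), Nelfa, a pausing factor (-0.33), and Trp53 (-0.19). Of 25 silencing factors 2 rose and 2 fell in activated eggs against wildtype, with a median log2 fold of -0.003. These edgeR counts were near the shares over all genes (5.66% higher and 7.33% lower). DESeq2 called 8 of the 25 (21.8% of all genes) and limma voom 4 (14.4%). The risers by edgeR were the chromatin assembly gene Chaf1b (3.36 ± 0.65, edgeR adjusted p = 0.00213) and the deacetylase Hdac2 (1.32 ± 0.39). Those that fell were Trim28 (-1.63 ± 0.47, edgeR adjusted p = 0.0294) and Sumo2 (-2.71 ± 0.79), all 4 named after their values were seen. Chaf1b had risen in mutants too (2.48 ± 0.50), where 2 of 25 rose and 0 fell (5.36% and 4.03% of all genes). In activated against mutant eggs 0 of 25 rose and 2 fell (1.42% and 3.43% of all genes). Among the 3 most counted silencers, the maintenance methyltransferase Dnmt1 was higher in mutants than in wildtype (0.92 ± 0.20, edgeR adjusted p = 0.00744), lower in activated than in mutant eggs (-1.62 ± 0.29, edgeR adjusted p = 0.00319) and not called between activated and wildtype eggs (-0.70, edgeR adjusted p = 0.148). The other two, Chaf1a, the most counted, and Rnf2, did not pass in any comparison. M3 against the other mutants gave 0 of 25 by edgeR, DESeq2 and limma voom, with 1, 3 and 1 at an unadjusted p under 0.05. Among egg markers 5 of 10 fell and 0 rose in activated eggs against wildtype (7.33% of all genes fell and 5.66% rose), among them the linker histone H1f8 (-3.39 ± 0.33), and 1 of 8 granulosa and cumulus markers fell, Serpine2 (-2.01 ± 0.32).

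Across 104 eggs of at least 10000 counts, the gene outside the 6 most like Duxf3 in log2(CPM + 1) was Duxf1 (Pearson r = 0.952). Usp17lc (0.909), Gm47985 (0.89), Pramel16 (0.887) and Usp17ld (0.876) followed. For Zfp352 they were Pramel16 (0.982), Alyreffm2 (0.98), Alyreffm3 (0.964), Pramel31 (0.962) and Pramel17 (0.957). For Zscan4c they were Alyreffm3 (0.973), Eif4a3l1 (0.972), Zscan4-ps2, Zscan4f and Alyreffm2, and for Zscan4-ps3 the same genes led by Alyreffm3 (0.978). For Zscan4b they were Tdpoz8 (0.96), Pramel17, Zscan4-ps2, Dlx3 and Zscan4f, and for Zscan4d they were Alyreffm3 (0.896), Alyreffm2, Pramel16, Pramel17 and Pramel31. The 6 genes themselves were left out of these rankings, although some would have ranked. Zscan4b had r = 0.968 with Zscan4-ps3, above Tdpoz8. Zscan4d had 0.895 with Zfp352, below Alyreffm3 and above Pramel16 (0.888). Duxf3 had 0.884 with Zfp352, above Usp17ld alone. These correlations rest mostly on the contrast of activated eggs with eggs at 0, and the eggs share plates and depth.

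Within the 17 activated libraries alone the pattern split. Zscan4b, Zscan4c, Zscan4d and Zscan4-ps3 correlated with one another at 0.941 to 0.964, and with Zfp352 at 0.881 to 0.931. Duxf3 correlated with these 5 genes at 0.33 to 0.5, and with Duxf1 at 0.687 and Usp17ld at 0.778. Gm47985, whose r with Duxf3 was 0.89 over all eggs, had -0.091 there. Column mates among these 17 libraries are not independent points.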

How the data were processed

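The authors deposited raw counts per gene symbol for every egg, whole numbers without normalization, in 1 table. STAR, HTSeq and the GRCm38/mm10 build are named in the submitters' processing notes, without versions; how strand was set in counting is not stated there. The table had 0 columns that were not used and 0 rows without a gene name.

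Eggs were not used as replicates, because no label ties them to animals. Counts were summed into 9 sums, 1 per group and batch, and fitted with edgeR 4.0.16 (R 4.3.3): TMM scaling, filterByExpr with a minimum count of 10, group and batch as terms, robust quasi-likelihood F tests with 3 residual degrees of freedom, and Benjamini-Hochberg adjustment over 13832 genes with a threshold of 0.05. The p-values therefore reflect only the disagreement of group differences between the sums of each batch, which may be technical. Activated eggs formed 1 sum, assumed to vary like the others. The mutant fold was the mean of M1, M2 and M3 over wildtype. Standard errors were the log2 fold over the square root of F. Levels were raw CPM with exact Poisson intervals, and ratios had exact conditional binomial intervals, all at 95% and for counting error only. A group without a read was set at a floor of 3 counts. Since values are relative to totals of amplified polyadenylated transcripts, a fold does not give molecules per egg.

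The members, the lists (other Dux and Zscan4 copies, two-cell genes, factors that favour or silence Dux, and markers of eggs, granulosa and cumulus cells, and blood and stroma) and the tests were chosen with earlier results of these data known. Named genes were all 6 members, the 3 most counted genes of each list and the 5 genes outside the 6 most correlated with each member. The fit was tested on simulated counts of 12670 genes: 4-fold changes were recovered in 83% of 100 genes for mutant against wildtype and in 21% for activated against wildtype, 2-fold changes in 5% and 0%. The changed genes were drawn from those with a mean of at least 100 counts per sum, and all genes had the same spread. These rates therefore do not describe genes with few reads in most sums, as the 6 genes have. Alternatives were other scalings, filters and tools (DESeq2 1.42.0, limma 3.58.1), no batch term, sums per plate, thinned eggs and leaving out eggs or sums. Of these, 1 activated library per well column and leaving out 9 wildtype eggs whose 50 most counted genes took over 35% of the total were added after the data were seen. Promoters came from RefSeq and were searched and aligned with Biopython 1.88.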

Additional observations from a re-analysis of the deposited data

Results flagged for a closer look

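Among the groups of 4 to 10 eggs, M1 egg 9 stood apart from the other 3 M1 eggs of batch 1 for Duxf3, with 3.83 CPM (21 reads) against 0.118 CPM in the next egg and 0 in the others. The gap to the next egg was 0.969 of the whole range. In 5 combinations of gene and such a group with any read, 1 was set apart in this way. The limit used sets apart about 1 in 20 by chance where values follow a normal distribution. These values lie near 0 and do not, so that rate does not hold for them.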

How the results depend on the processing

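No paired analysis was possible because the sums per group and batch carry no replicate number. In the order mutant against wildtype, activated against wildtype and activated against mutant, 1298, 1797 and 670 genes passed, DESeq2 called 2779, 3018 and 1781, sums per plate 409, 666 and 161, and a fit without a batch term 51, 196 and 35. Without a filter 1099 passed in activated against mutant eggs. For M3 against M1 and M2, where 0.181% of the genes tested passed, DESeq2 called 0.774% (54 higher and 53 lower), thinned eggs gave 0.973% (41 and 45), no filter 0.909% (110 and 52) and limma voom 0.0145% (2 and 0). By edgeR 0 genes passed there without M3 egg 8, without M3 eggs 1 and 8, with sums per plate or without a batch term, where 630, 702, 880 and 579 had an unadjusted p under 0.05. Leaving out each sum in turn gave 755 to 1262 genes for mutant against wildtype, 380 to 1119 for activated against mutant, and 0.0324% to 0.386% for M3. The lowest came without wildtype of batch 2, M1 of batch 2 and the activated sum, in that order, and leaving out M1 of batch 1 gave 782 for the mutants. Leaving out the activated sum allows no fit of the comparisons with activated eggs. Limma voom split activated against wildtype into 1012 higher and 981 lower, and RLE scaling split mutant against wildtype into 687 and 696 instead of 741 and 557. Upper quartile scaling turned the split of activated against wildtype calls from 783 higher and 1014 lower to 993 and 841, and that of activated against mutant from 196 and 474 to 324 and 344, while in the former the median over all genes went from 0.151 to 0.297 (log2). Under 21 alternatives each, the 6 members kept a positive log2 fold in activated eggs against wildtype and against mutants. Duxf3 and Zscan4c passed under all 21 against wildtype, Zscan4d, Zscan4-ps3 and Zfp352 under 18 and Zscan4b under 12 (edgeR adjusted p 0.0691 without M3 egg 8; DESeq2 adjusted p 0.368; limma voom adjusted p 0.053). Duxf3 in mutants passed under 13 of 22. Signs turned for Duxf3 in mutants with thinned eggs (-0.339), for Duxf3 in M3 without eggs 1 and 8 (-2.931), and for its likeness to Gm47985 in activated eggs only (-0.091). Leaving out sums gave log2 folds in mutants against wildtype of -1.872 to 4.453 for Zscan4-ps3, -3.478 to 4.134 for Zscan4b, -1.047 to 6.454 for Zscan4c and -0.395 to 4.035 for Zscan4d, none of which passed. The cause of these changes was not tested. Wildtype eggs of batch 2 had the fewest counts, which limits what a read count of 0 can show there.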
